A study of Mus musculus with 4 samples.

Results

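RNA-seq was used to compare 10 germline and piRNA genes of 24116 counted genes between G3 Terc-/- and WT mouse embryonic stem cells (ESCs). The genes were chosen by name, as germline genes that promoter DNA methylation is thought to hold silent or low in ESCs, and not by a threshold on a measured value. They were Piwil2, Mov10l1, Tdrd12, Asz1 and Mael of the piRNA pathway, Stk31 and Tex19.1, the germ cell RNA regulators Dazl and Ddx4, and the meiotic gene Sycp3. Terc encodes the RNA template of telomerase, and ESCs are pluripotent cells taken from the early embryo. The WT libraries came from the C57BL/6 line that the labels call N12, and the G3 Terc-/- libraries from the C57BL/6 line F35. The G3 Terc-/- line was made from blastocysts of crosses within the preceding Terc-/- generation, and the labels put G3 before both genotypes. All cells grew on feeder cells with serum and LIF, and no drug or other agent separated the groups. Each genotype had 2 libraries from 1 line, so that genotype and line cannot be told apart, and the spread between libraries says nothing about the spread between lines.

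Gene counts per library lay between 18047995 and 22520017. The 7 and 2 Terc counts of WT stood against 0 in each G3 Terc-/- library, a depth that allows up to 3. At an adjusted p under 0.05 from edgeR, 43.5% of all tested genes changed, 21.7% higher and 21.8% lower in G3 Terc-/- ESCs. All 12 ESC markers were tested, 9 rose and 3 fell, with a summed level of 5626 and 5703 CPM (counts scaled to library size) in WT and 6855 and 7120 CPM in G3 Terc-/- libraries. Of 19 tested feeder fibroblast markers 8 rose, 0 fell and 11 did not pass, a share of 42.1% (1491 to 1721 CPM summed in WT, 2041 to 2354 CPM in G3 Terc-/-). Most of each sum was the single gene Fn1, with 1138 and 1008 CPM in WT and 1696 and 1506 CPM in G3 Terc-/- libraries. Sparc, the next highest, had 314 and 300 CPM in WT and 330 and 303 CPM in G3 Terc-/- libraries and did not pass. Both were named after their values were seen. All 10 tested markers of the 2-cell-like state, a rare state of ESC cultures, were higher (5.82 and 6.50 CPM summed in WT, 57.2 and 58.3 CPM in G3 Terc-/-). Of 17 late germ cell markers, 14 had too few counts for a test, and 2 of these, Tnp1 and Prm2, had 0 counts in all libraries. The 3 tested were Ddx25, Gfra1 and Zp3, of which Ddx25 and Gfra1 fell, and the list summed to 17.5 and 15.7 CPM in WT and 13.7 and 12.8 CPM in G3 Terc-/- libraries. The part of feeder, germ and 2-cell-like cells in the results was not tested, and in bulk RNA fewer cells of a type and less RNA per cell cannot be told apart.

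In germ cells, PIWI proteins carry short piRNAs that guide the cleavage of retrotransposon transcripts and the methylation of their DNA. Many genes of this pathway have CpG-rich promoters that gain methylation as the embryo implants, and they become active in the germ line after that methylation has been erased. A repressive complex called PRC1.6, whose subunits Mga, Max and E2f6 bind E-box and E2F motifs, also sits on many of these promoters in ESCs. Methylation itself was not analysed here.

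Promoter sequences from RefSeq (GRCm38.p6) were found for 9 of the 10 genes, and Piwil2 had none. The window ran from 250 bases before to 50 bases after the most upstream start listed with the promoter sequences. Such a start can lie inside the annotated gene. The Ddx4 window lies wholly inside its gene, and 103 of the 250 bases before the Mov10l1 start lie inside that gene. In this window the 9 promoters held a median of 20 CpG dinucleotides, against a median of 7 over 27025 promoters. All 9 held more than that median, and 8 of 9 did so when only the 250 bases before the start were counted. That background takes in promoters of genes that were not tested. Among tested genes the median was 19 CpG for those that rose, 22 for those that fell and 20 for the others. The median of 20 for the 9 promoters lay within these values. Ddx4 held the most, 38 CpG, and 95.2% of all promoters held fewer. Tdrd12 held the fewest, 9 CpG, and 53.8% of all promoters held fewer. The bases upstream of the annotated gene are shown for the 4 genes that had both a promoter sequence and a change between the genotypes. They run 5′ to 3′ on the strand of the gene, with each CpG in capitals, and come from chr7:35537785-35537994 (minus strand, Tdrd12), chr11:121145893-121146142 (plus strand, Tex19.1), chr6:49395289-49395505 (plus strand, Stk31) and chr17:50293637-50293870 (minus strand, Dazl).
Tdrd12: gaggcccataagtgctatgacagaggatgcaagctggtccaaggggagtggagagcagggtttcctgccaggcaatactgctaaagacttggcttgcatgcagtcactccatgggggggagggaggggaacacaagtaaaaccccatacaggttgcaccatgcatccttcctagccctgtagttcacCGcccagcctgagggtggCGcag
Tex19.1: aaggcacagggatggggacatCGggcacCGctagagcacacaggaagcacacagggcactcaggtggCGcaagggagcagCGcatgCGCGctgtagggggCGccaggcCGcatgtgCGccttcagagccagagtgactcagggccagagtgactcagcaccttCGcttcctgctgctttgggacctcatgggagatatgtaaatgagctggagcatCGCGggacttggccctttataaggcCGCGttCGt
Stk31: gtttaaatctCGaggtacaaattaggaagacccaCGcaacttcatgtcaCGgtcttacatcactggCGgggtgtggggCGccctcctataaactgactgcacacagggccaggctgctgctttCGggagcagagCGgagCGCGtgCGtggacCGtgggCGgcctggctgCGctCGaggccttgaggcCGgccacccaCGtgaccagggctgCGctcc
Dazl: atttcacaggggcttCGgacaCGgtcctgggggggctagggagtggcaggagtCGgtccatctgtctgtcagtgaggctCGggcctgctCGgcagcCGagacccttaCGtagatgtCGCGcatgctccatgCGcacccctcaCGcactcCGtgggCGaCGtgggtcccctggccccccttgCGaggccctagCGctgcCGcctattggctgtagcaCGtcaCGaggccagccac
The Tdrd12 stretch holds 2 CpG in 210 bases, both close to its 3′ end, whereas Stk31 holds 17 in 217 bases, Dazl 19 in 234 bases and Tex19.1 15 in 250 bases.

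**Figure D1:**
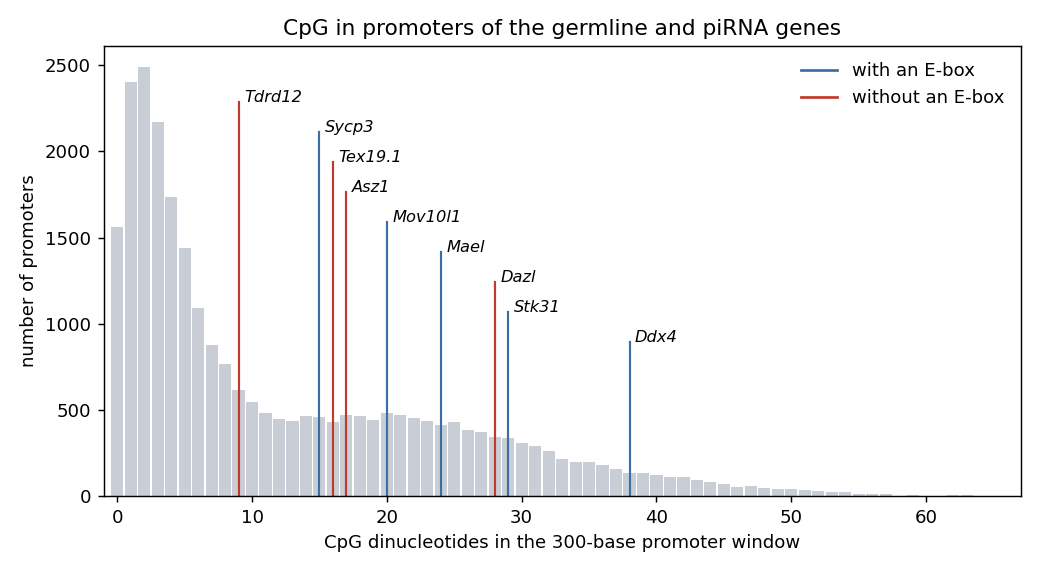
Number of CpG dinucleotides in the 300-base promoter window (x axis) for 27025 mouse promoters (grey bars, number of promoters on the y axis). Vertical lines mark 9 of the germline and piRNA genes, coloured by whether the window holds an E-box, and their heights carry no value. All 9 lie to the right of the median of 7 CpG, from Tdrd12 with 9 to Ddx4 with 38. The bars include promoters of genes that were not tested. Among tested genes the medians were 19 (higher), 22 (lower) and 20 (not called).

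The promoters were searched for the E-box CACGTG, which reads the same on both strands, and for the E2F motif GCGGGAA on both strands. The searched motifs do not overlap in these windows. An E-box was found in 5 of 9 promoters, those of Mov10l1, Mael, Stk31, Ddx4 and Sycp3, and in 7.24% of all promoters. That background takes in promoters of genes that were not tested, and among tested genes 1172 held an E-box and 10413 did not. Of the tested other piRNA genes 6 held one and 11 did not. Of the tested other methylation-dependent germline genes 5 held one and 17 did not. The E2F motif was found in 2 of 9, those of Ddx4 and Sycp3, and in 4.67% of all promoters. The E-boxes are shown in capitals with their flanks, a choice made after the values were seen. They lie at chr15:88982744-88982762 (plus strand, Mov10l1), chr1:166238953-166238976 (minus strand, Mael), chr6:49395475-49395498 (plus strand, Stk31), chr13:112652325-112652348 (minus strand, Ddx4, inside an annotated exon of that gene), and chr10:88459514-88459537 and chr10:88459535-88459558 (plus strand, Sycp3).
Mov10l1: ccttCACGTGctaaccgcc
Mael: caggcctacCACGTGacaatcccc
Stk31: ccggccaccCACGTGaccagggct
Ddx4: gtccgcccgCACGTGcagccgttt
Sycp3: gttggctccCACGTGagaacgggc
Sycp3: ggcatggagCACGTGctaggaggc
The Stk31 E-box begins 55 bases and the Ddx4 E-box 29 bases before the start used, and those of Mov10l1 and Mael begin 246 and 223 bases before it. No E-box was found in the windows of Tdrd12, Tex19.1, Dazl or Asz1. Among these genes the 3 tested without an E-box all changed and 1 of 5 with one did, whereas over all genes tested the shares were 43.5% of 10413 without and 44.2% of 1172 with an E-box. In the most similar lists the share was higher with an E-box than without, at 3 of 5 against 8 of 17 other methylation-dependent germline genes and 3 of 6 against 5 of 11 other piRNA genes. The split was made after the values were seen, and Piwil2, which changed but had no promoter sequence, is not in it.

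Most of the 10 genes were not silent in these ESCs. Levels were compared between genes as RPKM, which is CPM divided by the kilobases of annotated exon, and each gene's mean over the 4 libraries was ranked among 21163 genes. Tex19.1 stood highest, at 59.95 ± 0.457 RPKM in WT and 39.7 ± 1.48 in G3 Terc-/- ESCs (mean ± SD, n = 2 libraries here and below), above 95.4% of genes. Ddx4 stood second, at 18.4 ± 0.454 RPKM in WT and 18.7 ± 0.484 in G3 Terc-/-, above 86.5% of genes. The levels of Tex19.1 and Ddx4 go against the description of the genes as silent or low. The 7 further tested genes lay above 55.6% to 78.6% of the ranked genes, which include genes with too few counts for a test. The highest of these 7, Sycp3, shares exon bases with Chpt1, as given below. In WT the lowest of the tested genes were Mov10l1 (mean 2.06 RPKM), Dazl (2.43) and Stk31 (2.97). Only Asz1 was close to silent, with 2 counts in each WT library and none in G3 Terc-/-.

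The order of the levels changed with the genotype. In WT the order was Tex19.1, Ddx4, Tdrd12, Sycp3, Piwil2, Mael, Stk31, Dazl, Mov10l1 and Asz1, and the ranges of neighbours in this order did not overlap. In G3 Terc-/- it was Tex19.1, Ddx4, Sycp3, Piwil2, Mael, Dazl, Tdrd12, Mov10l1, Stk31 and Asz1, where only Sycp3 and Piwil2 overlapped. Tdrd12 went from the third to the seventh place and Dazl from the eighth to the sixth. The summed level of the 10 genes was 320.9 CPM in both WT libraries and 265.5 and 263.0 CPM in the G3 Terc-/- libraries.

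**Figure D2:**
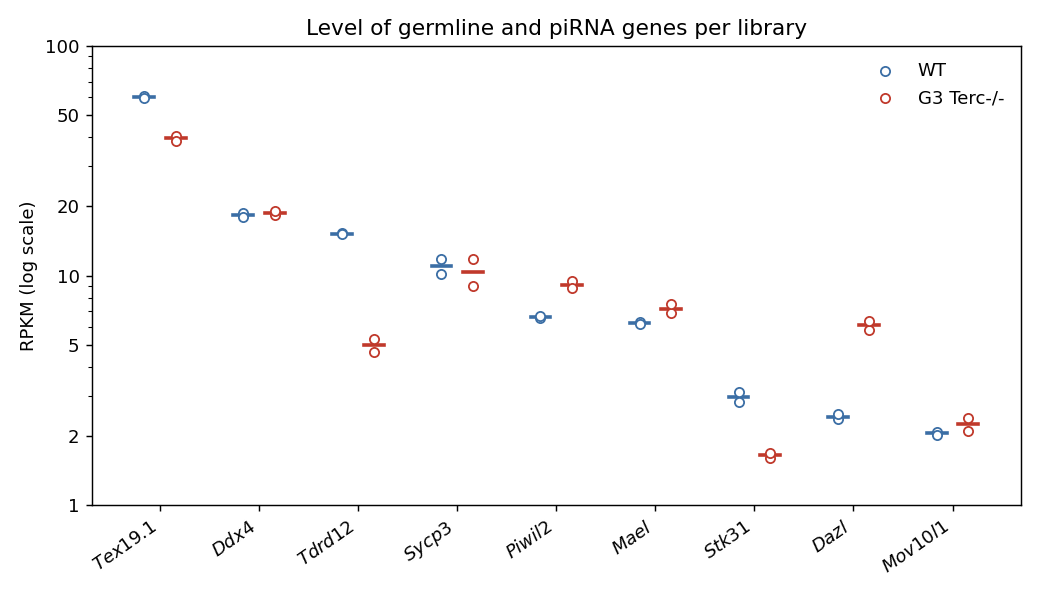
Level of the 9 tested genes in RPKM (log axis) in the WT (blue) and G3 Terc-/- (red) libraries, with 1 circle per library and a line at the mean of each genotype. Asz1 is not drawn because its G3 Terc-/- value is 0 on a log axis. Tex19.1 is highest in all libraries, and the circles of Tdrd12 and Dazl are the farthest apart by genotype.

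Changes were tested with the quasi-likelihood test of edgeR over 14896 genes, with p adjusted by Benjamini-Hochberg, and a gene is called changed at an adjusted p under 0.05. At this threshold 43.5% of all tested genes changed, 21.7% higher and 21.8% lower in G3 Terc-/- ESCs. Of the 9 germline and piRNA genes tested, 2 rose (Dazl and Piwil2), 3 fell (Tdrd12, Stk31 and Tex19.1) and 4 did not pass (Ddx4, Mael, Mov10l1 and Sycp3), a share of 55.6%. With a fold change over 2 and an unadjusted p under 0.05, as the study filtered its genes, Dazl was higher and Tdrd12 lower, against a background of 4.73% higher and 3.13% lower. The median log2 fold change was 0.03 for the 9 genes and 0.01 for all genes tested, and the median size of the change was 0.47 and 0.23. The genes therefore did not share a direction. Whether the libraries of the genotypes overlap is given below as description only. With 2 libraries against 2, an exact two-sided permutation test cannot go below p = 0.333. The share of all tested genes without overlap is not given here.

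**Figure D3:**
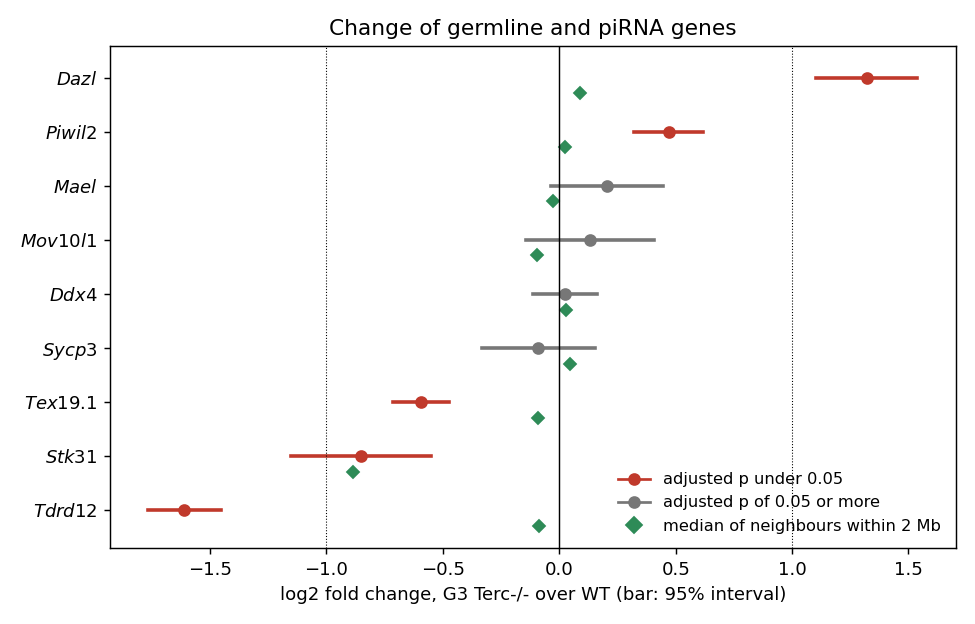
Log2 fold change of G3 Terc-/- against WT ESCs for the 9 tested genes, with circles for the estimate (red at an adjusted p under 0.05, grey otherwise), bars for its 95% confidence interval, green diamonds for the median of the tested genes within 2 Mb, and dotted lines at a fold change of 2. Dazl lies farthest to the right at 1.32 and Tdrd12 farthest to the left at -1.61, while the intervals of Ddx4, Mael, Mov10l1 and Sycp3 include 0.

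Tdrd12, a Tudor-domain protein with a helicase-like region that is needed for the piRNA amplification cycle, fell the most (gene identifier 71981, chr7:35466941-35537784). It had 66.5 and 65.7 CPM in the WT libraries and 22.9 and 20.2 CPM in the G3 Terc-/- libraries. Both WT values were far above both G3 Terc-/- values. The level was 3.05-fold higher in WT, a log2 fold change of -1.61 (SE 0.0767, 95% interval -1.76 to -1.45, adjusted p = 3.97e-21, edgeR). In its promoter, CpG were the fewest of the 9.

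Piwil2 encodes the PIWI protein MILI, which binds the piRNAs of fetal and adult male germ cells (57746, chr14:70372477-70436898). Its levels were 34.4 and 35.4 CPM in WT and 50.2 and 46.5 CPM in G3 Terc-/- libraries. The groups did not overlap, and Piwil2 rose 1.39-fold (log2 0.47, SE 0.0731, 95% interval 0.32 to 0.62, adjusted p = 9.92e-07, edgeR). Thus the transcripts of Piwil2 and Tdrd12, genes of the same pathway, changed in opposite directions.

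Mov10l1, the RNA helicase that starts the processing of piRNA precursors (83456, chr15:88982891-89055152), had 8.75 and 8.48 CPM in WT and 10.1 and 8.77 CPM in G3 Terc-/- libraries. The higher WT library and the lower G3 Terc-/- library almost touched, and the log2 difference of 0.13 did not pass (95% interval -0.14 to 0.41, adjusted p = 0.452, edgeR). Mael, a protein of the germ granules in which piRNAs are processed (98558, chr1:166201385-166238744), had 10.9 and 10.6 CPM in WT and 11.9 and 13.0 CPM in G3 Terc-/- libraries. Its groups did not overlap either, but the log2 difference of 0.21 did not pass (95% interval -0.04 to 0.45, adjusted p = 0.168, edgeR).

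Asz1 (GASZ), a scaffold that holds piRNA proteins at the mitochondria of germ cells, was the gene closest to silence (74068, chr6:18050964-18109061). Its 2 counts in each WT library and 0 counts in each G3 Terc-/- library were under the 3 counts that a count of 0 allows, so no fold is given, and it had too few counts for a test. A difference between genotypes was not detectable at this depth.

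Stk31, a protein with a Tudor and a kinase-like domain that is found in male germ cells (77485, chr6:49395506-49469506), fell. Its levels were 9.11 and 10.1 CPM in WT and 5.19 and 5.48 CPM in G3 Terc-/- libraries. Both G3 Terc-/- values lay below both WT values, with a 1.80-fold higher level in WT (log2 fold change -0.85, SE 0.149, 95% interval -1.15 to -0.55, adjusted p = 8.79e-06, edgeR). Tex19.1, a mammal-specific protein that limits retrotransposons in germ cells and placenta (73679, chr11:121146143-121148314), also fell. It had 112.8 and 111.6 CPM in WT and 76.3 and 72.4 CPM in G3 Terc-/- libraries. The groups were far apart for their spread, and the level was 1.51-fold higher in WT (log2 fold change -0.59, SE 0.0594, 95% interval -0.71 to -0.47, adjusted p = 3.47e-11, edgeR). Its paralog Tex19.2 had 51 and 66 WT counts against 50 and 44 in G3 Terc-/- libraries and did not pass (log2 fold change -0.19, adjusted p = 0.563, edgeR). How reads shared by this pair were assigned is not given in the sources used here.

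Dazl, an RNA-binding protein that promotes the translation of germ cell messages, rose the most (13164, chr17:50279393-50293620). It had 9.07 and 9.52 CPM in WT and 22.2 and 24.3 CPM in G3 Terc-/- libraries. Every G3 Terc-/- value was above every WT value, and the level rose 2.50-fold (log2 1.32, SE 0.107, 95% interval 1.10 to 1.54, adjusted p = 9.83e-14, edgeR). Ddx4, the mouse VASA homolog and a DEAD-box RNA helicase of germ granules (13206, chr13:112598333-112652633), had 56.4 and 54.4 CPM in WT and 55.4 and 57.4 CPM in G3 Terc-/- libraries. Its groups overlapped, and the log2 difference was 0.03 with a 95% interval from -0.11 to 0.16 (adjusted p = 0.792, edgeR). That interval leaves out a change of the size seen for Dazl.

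Sycp3, a structural protein of the synaptonemal complex that pairs chromosomes in meiosis (20962, chr10:88459587-88473236), had 12.9 and 14.9 CPM in WT and 11.4 and 14.9 CPM in G3 Terc-/- libraries. The groups overlapped and the difference did not pass (log2 -0.09, 95% interval -0.33 to 0.15, adjusted p = 0.579, edgeR). Of its 1264 exon bases, 660 (52.2%) are also exons of Chpt1 on the opposite strand, which had 262 and 317 WT counts against 296 and 259 in G3 Terc-/- libraries. The strand setting of the counting is not stated, so reads of Sycp3 and Chpt1 cannot be told apart there. No other gene of the 10 had such an overlap.

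Asz1 and Stk31 lie on chromosome 6, and most tested genes around both had lower levels in G3 Terc-/- ESCs. Within 2 Mb of Stk31, 34 of 36 tested genes had a log2 fold change below 0, 28 fell, 0 rose, and the median was -0.89 (quartiles -1.04 and -0.64). Stk31 at -0.85 lay inside that range, and 19 of the 36 were lower than it. Within 2 Mb of Asz1, 7 of 9 tested genes fell and 0 rose, with a median of -0.91. The median over the 691 tested genes of chromosome 6 was 0.07, and over the 14205 genes of other chromosomes 0.01. The decrease of Stk31 was therefore shared by its neighbours, and the part of the region in it was not tested.

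The nearest tested genes on each side of Stk31 were Fam221a (-1.40), Ccdc126 (-1.47), Npy (0.52) and Mpp6 (-0.77), in log2 fold change, and all but Npy fell (adjusted p = 1.29e-05, 2.06e-07 and 2.01e-12, and 0.285 for Npy, edgeR). Those nearest to Asz1 were Capza2 (-1.08), St7 (-1.17), Cftr (-3.20, with a mean of 8.75 counts) and Cttnbp2 (0.26), and all but Cttnbp2 fell (adjusted p = 2.35e-19, 9.51e-05 and 4.64e-04, and 0.540 for Cttnbp2, edgeR). No other gene of the 10 had such neighbours. Around the other 8 genes the median within 2 Mb lay between -0.10 (Mov10l1) and 0.09 (Dazl), and it was -0.09 around Tdrd12 and Tex19.1 and 0.02 around Piwil2. The changes of Dazl, Tdrd12, Tex19.1 and Piwil2 were larger than these medians, and how far was not tested.

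**Figure D4:**
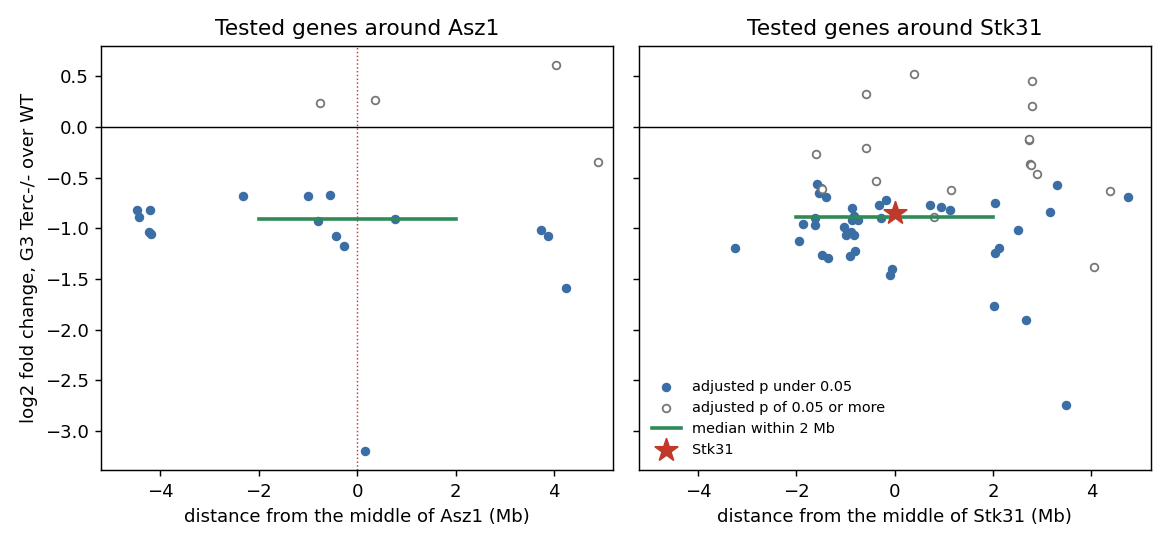
Log2 fold change of G3 Terc-/- against WT ESCs (y axis) for the tested genes within 5 Mb of Asz1 (left) and Stk31 (right) on chromosome 6, by distance in Mb from the middle of each gene. Each circle is 1 gene, filled at an adjusted p under 0.05, the green line is the median within 2 Mb, the star is Stk31 and the dotted line marks the untested Asz1. Most circles lie below 0, with medians of -0.91 around Asz1 and -0.89 around Stk31.

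Other genes of the piRNA pathway were counted beside these. Of 26 listed, 24 were in the counts and 21 were tested, and 4 rose and 6 fell (47.6%, against 43.5% of all genes), with a median log2 fold change of -0.10. With DESeq2 the count dropped from 10 to 6, with 2 higher and 4 lower. The arginine methyltransferase gene Prmt5, whose product marks PIWI proteins for Tudor binding, fell slightly (-0.29, SE 0.0498, adjusted p = 5.65e-06, edgeR). Tex15, a partner of piRNA-directed silencing, fell by 0.39 (SE 0.0829, adjusted p = 1.82e-04, edgeR). Piwil4, the nuclear PIWI protein MIWI2, had 51 and 55 WT counts against 19 and 20 in G3 Terc-/- libraries and fell by 1.31 (SE 0.306, adjusted p = 5.22e-04, edgeR), opposite in sign to Piwil2. The other decreases were Tdrd5, Pld6 and Ddx25. The increases were Tdrd3, Tdrkh, Mybl1 and Piwil1, named after their values were seen, and Piwil1 had 10 and 16 WT counts against 35 and 14 in G3 Terc-/- libraries.

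Another list held 28 germline genes taken to depend on promoter methylation, which was not analysed here. Of these, 23 were tested, 8 rose and 4 fell (52.2%, against 43.5% of all genes), with a median of 0.13. Syce1, a synaptonemal complex gene, had 157 and 165 WT counts against 370 and 314 in G3 Terc-/- libraries and rose by 1.21 (SE 0.121, adjusted p = 3.15e-11, edgeR). The testis deubiquitinase gene Usp26 had 410 and 461 WT counts against 89 and 87 in G3 Terc-/- libraries and fell by 2.18 (SE 0.133, adjusted p = 1.35e-17, edgeR). Cyct, the testis cytochrome c, fell from 52.0 and 49.9 CPM to 19.6 and 19.5 CPM (log2 -1.39, SE 0.0784, adjusted p = 1.16e-18, edgeR). Of the other decreases, Ldhc had a log2 fold change of -2.94 and Zcwpw1 of -0.59, and Sohlh2 had the second largest increase at 1.08, all named after their values were seen. Like Dazl and Tdrd12, the named genes of this list included increases and decreases.

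Of the meiosis genes, 22 were tested, 2 rose and 5 fell (31.8%, against 43.5%), with a median of -0.06. Stra8, the retinoic acid-induced gene that starts meiosis, had 198 and 215 WT counts against 94 and 67 in G3 Terc-/- libraries. It fell by 1.24 (SE 0.16, adjusted p = 2.12e-08, edgeR). Stra8 lies on chromosome 6 (start 34920163), but outside the windows of 5 Mb around Asz1 and Stk31, and its neighbours were not examined. Hormad2, which monitors unpaired chromosomes, fell by 1.23 (SE 0.224, adjusted p = 1.54e-05, edgeR), and Syce2 of the synaptonemal complex by 0.34 (SE 0.0716, adjusted p = 1.21e-04, edgeR). Spata22 and Stag3 also fell, and Hfm1 and Mns1 rose, named after their values were seen.

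Regulators of DNA methylation and of PRC1.6 were measured in the same libraries. All 29 were tested, 7 rose and 12 fell (65.5%, against 43.5% of all genes, 21.7% higher and 21.8% lower), with a median of -0.07. The de novo methyltransferase gene Dnmt3b had 514.3 and 523 CPM in WT and 231.3 and 241.4 CPM in G3 Terc-/- libraries and fell by 1.13 (SE 0.0492, adjusted p = 1.59e-22, edgeR). The heterochromatin protein genes Cbx3 (-1.24, SE 0.0608, adjusted p = 9.09e-21, edgeR) and Cbx1 (-0.59, SE 0.0529, adjusted p = 1.41e-12, edgeR) fell, and Cbx3, a PRC1.6 subunit, lies on chromosome 6. Among genes named after their values were seen, the maintenance genes Dnmt1 (-0.07) and Uhrf1 (0.02) and the PRC1.6 subunit genes Mga (-0.03), Max (-0.09) and E2f6 (-0.07) did not pass, while Pcgf6 fell by 0.34. Of the genes that rose, L3mbtl2 (0.33), Ring1 (0.38) and Rnf2 (0.22) encode PRC1.6 subunits. Dnmt3l (0.31) encodes a cofactor of the de novo methyltransferases and Tet2 (0.46) a 5-methylcytosine oxidase, and Trim28 (0.41) and Wdr5 (0.19) also rose. The PRC1.6 subunit genes Rybp (-0.15) and Tfdp1 (-0.17) fell, as did Dnmt3a (-0.50), Ehmt1 (-0.38), Tdg (-0.35), Ehmt2 (-0.25), Tet1 (-0.19) and Usp7 (-0.15). These genes were also named after their values were seen. The part of these regulators in the levels of the germline and piRNA genes was not tested.

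**Figure D5:**
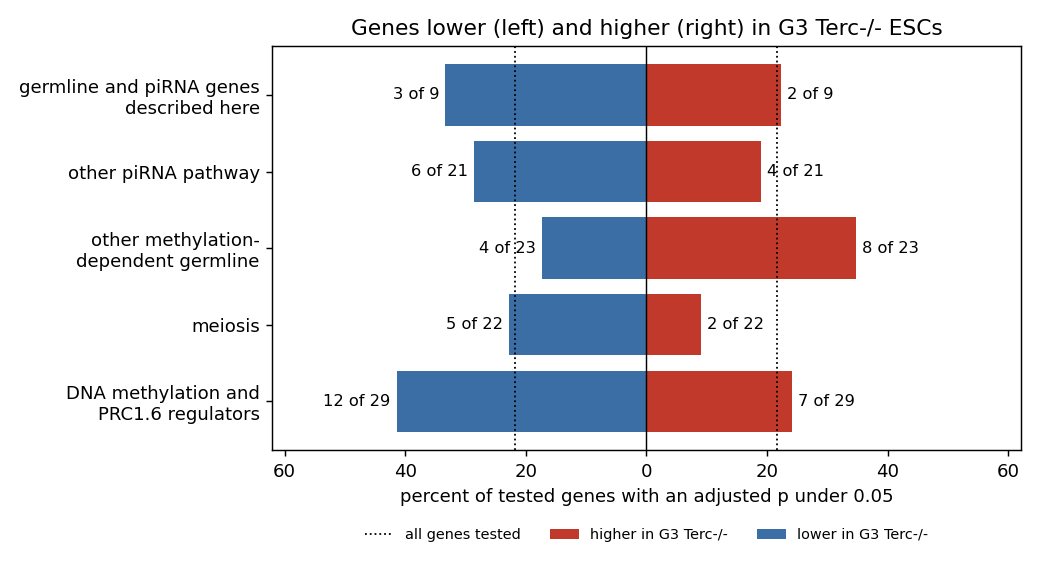
Percent of tested genes with an adjusted p under 0.05 that were lower (blue, left of 0) or higher (red, right of 0) in G3 Terc-/- ESCs, for the 9 tested germline and piRNA genes and 4 other lists, with the number called of the number tested beside each bar. Dotted lines mark the shares over all genes tested, 21.8% lower and 21.7% higher, and the bars run from 2 of 22 higher in the meiosis list to 12 of 29 lower among the regulators.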

How the data were processed

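Per the study's methods and the submitters' processing notes, poly(A) RNA was sequenced as paired reads, trimmed with Trim Galore, aligned to mm10 with STAR and counted with featureCounts. The authors deposited raw counts per NCBI gene identifier, without normalization. Strand setting and annotation are not given in the sources used here, and the deposited counts of transposable element copies were not used here. Symbols and positions came from RefSeq (GRCm38.p6; 24061 of 24116 identifiers matched) and exon lengths from GENCODE vM21. The counts were tested with edgeR 4.0.16 in R 4.3.3 (genes kept by filterByExpr, TMM scaling, a quasi-likelihood fit on genotype alone, and Benjamini-Hochberg adjustment over 14896 genes). The study used Cufflinks, which needs reads. CPM and RPKM used the TMM-scaled library sizes. The fit was tested on simulated counts. With 2 libraries against 2, an exact two-sided permutation test cannot go below p = 0.333. The replicates, described as biological, differed by more than sampling noise (chi-square per gene 2.41 in WT and 3.60 in G3 Terc-/-).

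The 10 genes and the lists were chosen with earlier results of these data known. The text names the 10 genes, Terc, for each list at most 3 genes, those of smallest p at a mean of 20 counts or more, and the 2 nearest tested genes on each side of Asz1 and Stk31. Further genes were named after their values were seen, among them Tex19.2, Chpt1 and the other called or compared genes of the lists. Alternatives were DESeq2 1.42.0, other scalings and filters, a replicate block and each library left out.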

Additional observations from a re-analysis of the deposited data

How the results depend on the processing

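Under DESeq2, DESeq2's size factors or upper-quartile scaling in edgeR, scaling without chromosome 6, no filter, a filter of 10 counts in 2 libraries and each library left out, 2 of the germline and piRNA genes rose and 3 fell in every fit, and Dazl and Tdrd12 were the ones past a fold of 2. With a library left out, the lone library was assumed to vary like the other genotype. Dazl ranged from 1.26 to 1.38, Tdrd12 from -1.71 to -1.52, Tex19.1 from -0.64 to -0.55, Piwil2 from 0.41 to 0.53 and Stk31 from -0.93 to -0.78. Small differences that did not pass changed sign: with a library left out, Ddx4 ranged from -0.00184 (without WT replicate 2) to 0.0477 (without WT replicate 1), and over all alternatives up to 0.0524 (upper-quartile scaling). Sycp3 ranged, with a library left out, from -0.28 (without G3 Terc-/- replicate 2) to 0.02 (without WT replicate 2) and 0.10 (without G3 Terc-/- replicate 1). With DESeq2, 6 genes of the other piRNA list were called in place of 10 (2 higher and 4 lower), and the cause was not tested. The replicate numbers were shared by the genotypes but only 2 pairs exist, and the difference between replicates correlated at r = 0.11 across 14896 genes, which are not independent replicates. With the replicate number as a block, 5 of these genes were called and 2 passed the fold of 2, and the other piRNA, other methylation-dependent, meiosis and regulator lists had 11, 12, 8 and 19 calls. Depth limits Asz1, whose counts were under 3.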

Other observations

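Markers of primordial germ cells, the embryonic founders of the germ line, were measured beside the genes above. All 10 were tested, 4 rose and 4 fell (80.0%, against 43.5% of all genes, 21.7% higher and 21.8% lower), and the summed level was 516.6 and 526.2 CPM in WT and 584.3 and 560.9 CPM in G3 Terc-/- libraries. Prdm14, a regulator of primordial germ cell fate and of naive pluripotency, had 16.4 and 14.8 CPM in WT and 35.4 and 31.6 CPM in G3 Terc-/- libraries and rose by 1.10 (SE 0.0903, adjusted p = 1.27e-13, edgeR). Dppa3 (Stella), which protects DNA from demethylation in the zygote, had 56.5 and 58.3 CPM in WT and 23.2 and 26.1 CPM in G3 Terc-/- libraries and fell by 1.22 (SE 0.0765, adjusted p = 2.94e-17, edgeR). Dppa3 also lies on chromosome 6 (start 122626424). Its neighbours were not examined as a set, but the ESC marker Nanog, which starts at 122707489 on that chromosome, rose by 1.13 (adjusted p = 4.74e-23, edgeR). The part of the region in the decrease of Dppa3 was not tested. The receptor gene Kit rose by 0.57 (SE 0.0613, adjusted p = 2.74e-10, edgeR).

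Among the other methylation-dependent germline genes with a promoter sequence, the 7 that rose had a median of 21 CpG per window (13 to 29), the 4 that fell 8.5 (5 to 17) and the 11 that did not pass 14. Over all genes tested the medians were 19, 22 and 20. Among the 10 genes described above, Dazl rose with 28 CpG, and those that fell held 9, 16 and 29. The 4 that did not pass held 15 to 38, with a median of 22, and Piwil2, which also rose, had no promoter sequence. This split was made after the values were seen and was not tested.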
